A study of Homo sapiens with 16 samples.

Results

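The STAT transcription factors analysed here were STAT2, STAT3, STAT4, STAT5A, STAT5B and STAT6, chosen by gene symbol as rows of the count table. No measured value entered that rule, but earlier results of these data were known when the members were set. They made up 6 of the 35993 gene rows, and all 6 were among the 21297 genes that passed the filter on low counts. Every member was read in all 16 libraries, and CM-1758 was compared with control in each cell line.

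The cells were 4 established human bladder cancer lines, 253J, J82, RT112 and TCCSUP, labelled wild type, and each line gave 2 control and 2 CM-1758 libraries. Treated cells were exposed for 48 h to CM-1758, an inhibitor of histone deacetylases, at the IC50 of their own line, so the concentration differed between lines. Control cells received the solvent DMSO at 0.01%. The 253J, J82 and RT112 cells were grown in DMEM and the TCCSUP cells in EMEM, and in comparisons between lines the medium, the concentration and the line cannot be told apart. Each group rests on 1 cell line, and its 2 libraries came from independent experiments of that line.

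STAT proteins wait in the cytoplasm until a cytokine or growth factor receptor is engaged. Receptor-bound JAK kinases then phosphorylate them on a tyrosine, and the STATs pair, enter the nucleus and bind DNA. Type I interferon works through STAT2, which acts with IRF9. The IL-6 family works mainly through STAT3, IL-12 through STAT4, prolactin, growth hormone and IL-2 through STAT5A and STAT5B, and IL-4 and IL-13 through STAT6. SOCS proteins close the loop, because STATs switch on their genes and they in turn block the receptors and kinases. STAT4 is best known from T cells and natural killer cells, whereas the other members are transcribed in most tissues. These measurements are of RNA and say nothing of phosphorylation or protein.

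Control libraries held 27655401 to 32537104 counts and CM-1758 libraries 22506431 to 31547585. Small noncoding RNA genes took 9.58 to 13.2% of the counts in control and 10.2 to 21.3% under CM-1758. The share was higher under CM-1758 in TCCSUP (12.4 and 12.1%, then 19.3 and 21.3%) and 253J (9.58 and 11.2%, then 16 and 13.9%). In J82 it was 13.17 and 12.83%, then 13.2 and 16.05%. The groups overlapped in RT112 (11.83 and 9.63%, then 11.16 and 10.18%). The part of this share in the member values was not tested beyond the scalings given in the closing section. Of the 17 urothelial and epithelial markers, 1 stood at 3 counts or fewer in both control libraries of RT112, 4 in TCCSUP, 7 in 253J and 8 in J82. Among 13 leukocyte markers, between 7 and 10 were at 3 counts or fewer in both control libraries of a line, and between 4 and 7 in both CM-1758 libraries. The summed leukocyte level ranged from 4.34 to 73.2 CPM in control and from 7.87 to 41.2 CPM under CM-1758, where CPM, the count normalised to library size, was taken on sizes scaled by the trimmed mean of M values (TMM). The summed fibroblast and endothelial markers stood at 8030 to 8460 CPM in TCCSUP control and 582 to 652 under CM-1758, at 3390 to 3490 and 2010 to 2130 in J82, at 1340 to 1370 and 844 to 914 in RT112, and at 30 to 30.9 and 20.4 to 21.7 in 253J. The summed urothelial and epithelial markers stood at 3190 to 4340 CPM in control and 1880 to 2370 under CM-1758 in 253J, at 10200 to 10700 and 6860 to 7590 in RT112, at 1340 to 1460 and 519 to 602 in TCCSUP, and at 5970 to 8100 and 6970 to 7890 in J82. Single genes carried some sums, with LUM at 1360 and 1330 CPM in RT112 control and COL3A1 at 2980 and 3180 in J82 control. Not every marker moved with its sum, and in RT112 CDH1 went from 461 and 473 to 875 and 872 CPM. The part of these lists in the member values was not tested. Each library came from a culture of 1 cell line. In bulk RNA, fewer cells of the line that express a marker and less RNA per cell cannot be told apart.

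The stretches upstream of the STAT4, STAT5A and STAT5B transcript starts are shown because STAT4 had the highest upward change among the members and the STAT5 paralogs fell in every line. Each is the 250 bases before a RefSeq start, read 5′ to 3′ on the gene's own strand in build GRCh38.p14, with any GC box (GGGCGG or its reverse complement, the letters bound by Sp1-type factors) in capitals. RefSeq lists 2 starts for STAT4 and 3 for STAT5A, and gene counts cannot tell which was used. The STAT4 stretch (start 2, chr2:191151597-191151846, minus strand) and the STAT5A stretch (start 1, chr17:42287189-42287438, plus strand) held no exon base of their gene in GENCODE 29. The STAT5B stretch (chr17:42276392-42276641, minus strand) held 29 such bases. STAT5A and STAT5B lie beside each other on chromosome 17 and point in opposite directions.
STAT4: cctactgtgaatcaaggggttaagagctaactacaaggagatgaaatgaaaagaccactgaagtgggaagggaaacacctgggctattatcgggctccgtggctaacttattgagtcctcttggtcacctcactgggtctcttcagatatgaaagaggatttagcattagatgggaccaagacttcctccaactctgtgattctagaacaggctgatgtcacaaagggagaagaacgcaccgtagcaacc
STAT5A: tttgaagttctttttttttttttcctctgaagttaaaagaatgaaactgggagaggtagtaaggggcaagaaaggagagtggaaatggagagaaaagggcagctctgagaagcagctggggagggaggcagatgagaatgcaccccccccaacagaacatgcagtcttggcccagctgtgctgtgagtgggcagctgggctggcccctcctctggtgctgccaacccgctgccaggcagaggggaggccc
STAT5B: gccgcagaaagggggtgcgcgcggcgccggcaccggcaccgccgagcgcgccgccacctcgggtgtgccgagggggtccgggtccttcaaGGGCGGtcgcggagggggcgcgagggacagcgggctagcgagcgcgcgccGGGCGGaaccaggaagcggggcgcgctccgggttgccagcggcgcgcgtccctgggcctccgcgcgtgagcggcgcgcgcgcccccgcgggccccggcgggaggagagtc

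STAT5B carried 47 CpG dinucleotides and 2 GC boxes in this window, and 99.7% of the 35116 RefSeq promoters of equal length held fewer CpGs, against a median of 11. The STAT5A stretch held 1 CpG and the STAT4 stretch 4, with no GC box in either, whereas 42.6% of all promoters held at least 1. Among the other 6 starts of the members, STAT2 held 21, STAT3 18, STAT6 11, the second STAT5A start 4 and the third 29, and the remaining STAT4 start held 10. No member window held TTCNNNGAA, 1 form of the STAT recognition letters, which 6.57% of all promoters carry, on either strand. Other spacings were not searched, and the STAT5A stretch shown holds ttcctctgaa, with 4 bases between TTC and GAA. The core of the interferon-stimulated response element (GAAA, any 2 bases, GAAA), which 3.02% carry, was found in no member window on either strand. A GC box was found at STAT2 (3), STAT3 (2), STAT6 (2) and the third STAT5A start (1), and CCAAT, present in 32% of all promoters, at STAT3 (2) and STAT6 (1). These matches are descriptions of letters.

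Under CM-1758 the STAT transcripts did not all change in the same direction. STAT5A, STAT5B and STAT6 fell in all 4 lines, STAT3 rose in 3, STAT4 rose in the 3 lines other than RT112, and STAT2 rose in 253J and RT112 but fell in J82 and TCCSUP. Of the 24 pairs of member and line, 22 passed an adjusted p of 0.05 in edgeR's quasi-likelihood test, and in 23 the control and CM-1758 libraries did not overlap in CPM. By line, 6 members were called in 253J (3 higher, 3 lower), 6 in J82 (2 higher, 4 lower), 5 in RT112 (2 higher, 3 lower) and 5 in TCCSUP (1 higher, 4 lower). The background was high: 51.3% of all tested genes were called in 253J, 42.5% in J82, 47.7% in RT112 cells and 54.1% in TCCSUP. Libraries of the groups did not overlap for 73% of tested genes in 253J, 62.7% in J82, 74.3% in RT112 cells and 78.5% in TCCSUP. Averaged over the lines, 5 members had a mean effect past the test, against 61.9% of tested genes, and the control level differed between lines for all 6, against 78.8%. The 3 members lower in every line stand beside 6.01% of tested genes that were, while 0 members were higher in every line against 6.69%. At the study's stricter limits, an adjusted p under 0.01 and a log2 fold change beyond 2, the members called were STAT4 in 253J (1 of 6), STAT4 in J82 (1), none in RT112 (0) and STAT4 and STAT6 in TCCSUP (2), against 12.9%, 10.1%, 12.8% and 17.5% of tested genes.

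**Figure D1:**
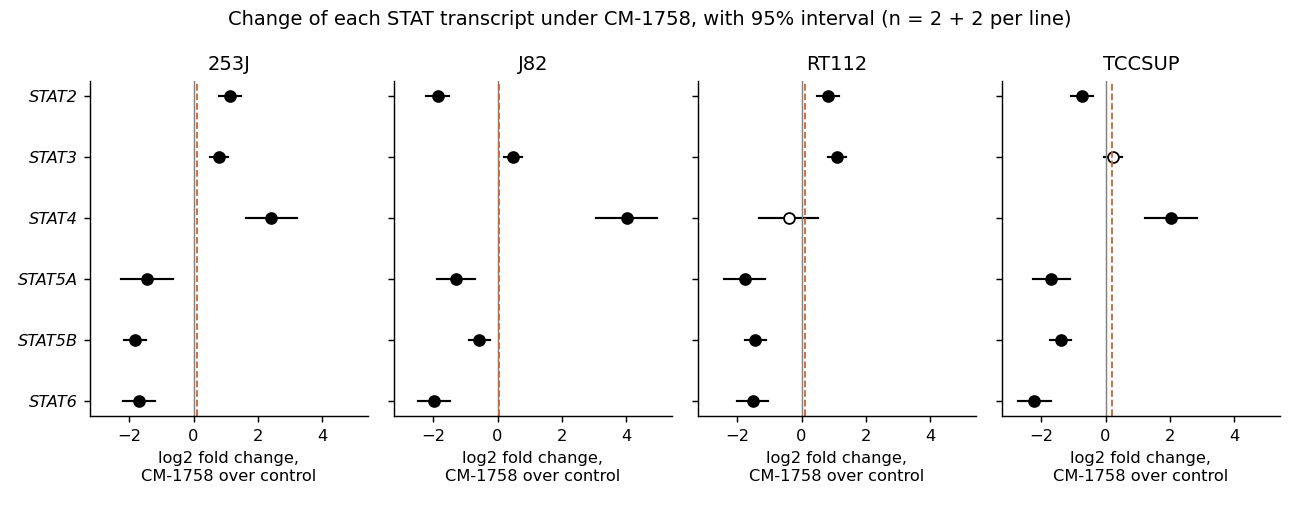
Log2 fold change of each STAT transcript, CM-1758 over control, in the 4 lines, with its 95% interval. Filled circles passed an adjusted p of 0.05, open circles did not, and the dashed line is the median of all tested genes. STAT5A, STAT5B and STAT6 lie left of 0 in every panel, and STAT2 changes side between lines.

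STAT2, the partner of IRF9 in the interferon response, changed in every line but not in the same direction. In 253J it stood at 53.0 and 55.3 CPM in control and at 107 and 129 under CM-1758. In J82 the control libraries held 389 and 318 CPM and the CM-1758 libraries 112 and 83.7. RT112 went from 82.3 and 70.8 to 138 and 132 CPM. TCCSUP went from 153 and 141 to 89.7 and 88.8 CPM. The lines with the higher control levels fell and those with the lower ones rose, and in none did the groups overlap; the control libraries enter both the level and the change. The log2 fold change was 1.12 ± 0.16 (SE from a spread shared over all 16 libraries, n = 2 and 2, adjusted p = 3.78e-05) in 253J, -1.85 ± 0.16 (7.27e-07) in J82, 0.82 ± 0.16 (7e-04) in RT112 cells and -0.72 ± 0.16 (0.00157) in TCCSUP. The effect differed between lines (edgeR interaction F test, adjusted p = 3.06e-07), as it did for 51.9% of tested genes. Of the 6 pairs of lines, 5 differed in effect, and the 253J and RT112 effects differed by 0.30 (95% interval -0.18 to 0.78, adjusted p = 0.368). Being higher in at least 1 line and lower in another was found for 12.9% of tested genes. The mean change over the lines was -0.16 ± 0.08 (adjusted p = 0.102). The TCCSUP call was lost when libraries were scaled by their totals alone (-0.41, adjusted p = 0.0506) and when the small noncoding RNA genes were also left out of the totals (-0.27, 0.17).

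Before treatment STAT2 spanned the lines widely, from 54.2 ± 1.63 CPM in 253J through 76.5 ± 8.13 in RT112 cells and 147 ± 8.65 in TCCSUP to 353 ± 50.3 in J82 (SD, n = 2 each). All 6 pairs of control lines differed (largest adjusted p = 0.0159, 253J against RT112). Under CM-1758 the means were 89.2 ± 0.675 CPM in TCCSUP, 97.8 ± 19.9 in J82, 118 ± 15.6 in 253J and 135 ± 4.34 in RT112. The ratio of the highest to the lowest line mean thus went from 6.52 to 1.52. A test of the CM-1758 levels, chosen after these values were seen, still separated the lines (adjusted p = 0.0113), as it did for 83.7% of tested genes, with 3 of 6 pairs differing. On the log2 scale the range over lines shrank from 2.7 to 0.60, and 9.96% of tested genes had a smaller value of this change. Over all tested genes the median range was 1.56 in control and 1.68 under CM-1758.

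IRF9, which binds DNA together with STAT2, moved in the same direction as STAT2 in each of the 4 lines. Its log2 fold change was 1.02 ± 0.21 in 253J, -2.72 ± 0.21 in J82, 0.71 ± 0.21 in RT112 cells and -2.16 ± 0.21 in TCCSUP (edgeR adjusted p = 0.000805, 2.61e-07, 0.0126 and 1.21e-06). The IRF9 level in control was 85.3 CPM in J82 and 43.2 in TCCSUP, and 11.7 in 253J and 9.38 in RT112. Of the receptor chains for type I interferon, IFNAR1 fell by 0.68 and IFNAR2 by 1.07 on the log2 scale in 253J (adjusted p = 0.00143 and 0.000488), and neither passed the test in the other lines. TYK2, the kinase bound to IFNAR1, fell in J82 (-0.49) and TCCSUP (-0.88).

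**Figure D2:**
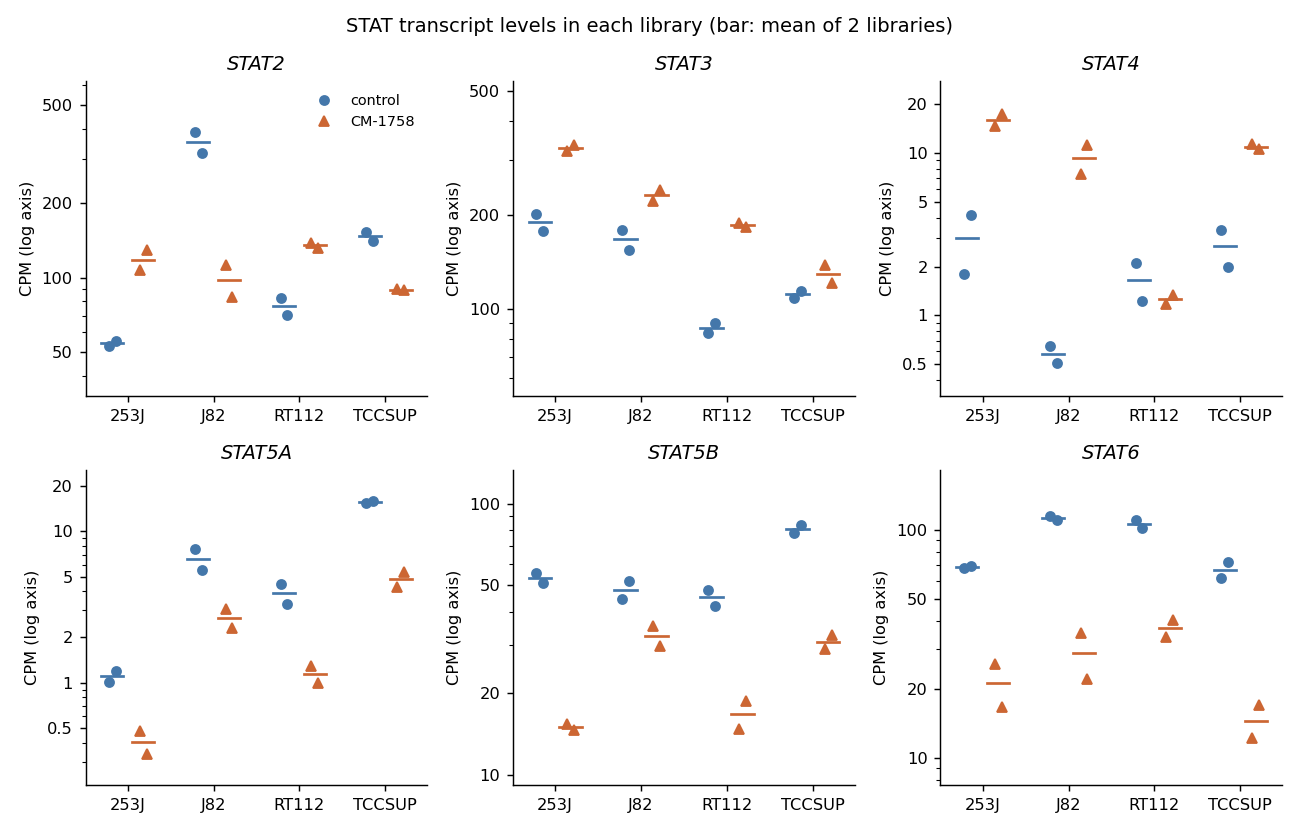
CPM of the 6 members in each library, on log axes that differ between panels. Circles are control libraries, triangles CM-1758 libraries and bars the mean of 2. The 4 lines spread from 54.2 to 353 CPM of STAT2 in control and from 89.2 to 135 under CM-1758. For STAT5A, STAT5B and STAT6 every triangle sits below the circles of its line.

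STAT3, the factor of the IL-6 family, rose in 253J, J82 and RT112. It went from 202 and 178 CPM to 320 and 335 in 253J, from 179 and 155 to 222 and 241 in J82, and from 83.9 and 89.8 to 189 and 183 in RT112. In TCCSUP it stood at 109 and 114 CPM in control and at 138 and 121 under CM-1758. The groups did not overlap in any line, and the shift was smallest in TCCSUP. The log2 fold change was 0.79 ± 0.13 in 253J (adjusted p = 0.000141), 0.47 ± 0.13 in J82 (0.00916), 1.10 ± 0.13 in RT112 (1.09e-05) and 0.22 ± 0.13 in TCCSUP (0.171, 95% interval -0.06 to 0.50). Higher calls took 28.8% of tested genes in 253J, 24% in J82, 27.4% in RT112 cells and 32% in TCCSUP. The effect differed between lines (edgeR interaction adjusted p = 0.00533), with RT112 above J82 by 0.63 and above TCCSUP by 0.88, and 253J above TCCSUP by 0.57 on the log2 scale (adjusted p = 0.0242, 0.00245 and 0.0317). The mean change over the lines was 0.64 ± 0.07 (adjusted p = 5.03e-07). The J82 call was lost without J82 control replicate 3 (0.37, adjusted p = 0.0769) and without J82 CM-1758 replicate 3 (0.41, 0.0604), and TCCSUP gained a call when libraries were scaled by their totals alone (0.53, 0.00308).

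STAT3 control levels ran from 86.8 ± 4.23 CPM in RT112 cells and 111 ± 3.85 in TCCSUP to 167 ± 17.4 in J82 and 190 ± 17.1 in 253J. 253J and J82 did not differ beyond their spread (difference 0.18 on the log2 scale, 95% interval -0.10 to 0.46, adjusted p = 0.258), and the other 5 pairs did. RT112, the lowest line in control, reached 186 ± 4.25 CPM under CM-1758. TCCSUP was then the lowest, at 130 ± 12.3, and 253J the highest, at 328 ± 10.9.

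STAT4, the IL-12 factor of lymphocytes, had low counts in control, 14 to 109 per library, and rose in 3 of the 4 lines. In 253J it went from 1.81 and 4.18 CPM to 14.6 and 17.3. In J82 it went from 0.646 and 0.509 to 7.41 and 11.2, and in TCCSUP from 3.36 and 1.99 to 11.4 and 10.5. In RT112 the control libraries held 2.09 and 1.22 CPM and the CM-1758 libraries 1.17 and 1.33, the only pair of member and line in which the groups overlapped. The log2 fold change was 2.42 ± 0.37 in 253J (adjusted p = 7.36e-05), 4.01 ± 0.44 in J82 (5.86e-06), 2.03 ± 0.38 in TCCSUP (0.000363) and -0.40 ± 0.42 in RT112 (0.466, 95% interval -1.31 to 0.50). A lower value was found for 85.4% of tested genes in 253J, 91.9% in J82, 78.6% in TCCSUP and 26.7% in RT112. The edgeR interaction test separated the lines (adjusted p = 0.000252). The RT112 effect was below that of 253J by 2.82, of J82 by 4.41 and of TCCSUP by 2.43 on the log2 scale (adjusted p = 0.00146, 0.00012 and 0.00457). The J82 effect was above that of 253J by 1.59 and of TCCSUP by 1.97 (0.0485 and 0.0231). The 253J value moved to 3.13 without 253J control replicate 3, which held 109 counts against 50 in the other control library, and it remained called (adjusted p = 7.32e-05). The RT112 value turned to 0.0365 without RT112 control replicate 1 (adjusted p = 1).

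The STAT4 rise was set beside the leukocyte markers because lymphocytes transcribe the gene. CD3E, a chain of the T cell receptor complex, was at 0 in both control libraries of all 4 lines and reached at most 0.275 CPM under CM-1758. MS4A1, a B cell marker, was at 0 in all 16 libraries. PTPRC, the pan-leukocyte surface marker, was at or under 0.948 CPM in every 253J, J82 and RT112 library. In J82 it rose, from 0.076 and 0.109 CPM to 0.895 and 0.948. In TCCSUP it stood at 8.63 and 10.5 CPM in control and 0.973 and 1.26 under CM-1758. ITGAM, also on the list, went from 0 in both TCCSUP control libraries to 1.39 and 1.46 CPM. Its RT112 levels went from 0.0654 and 0.0678 to 2.39 and 2.9, it also rose in J82, and its 253J groups overlapped. CD3D was at 0 in the TCCSUP control libraries and at 2.88 and 2.4 CPM under CM-1758. The summed list rose with STAT4 in 253J, from 8.54 and 11 CPM to between 30.4 and 41.2, where CD68, a lysosomal protein of macrophages that other cells also make, gave 27.4 and 37.1. In RT112, where STAT4 did not rise, the summed list also went up, from between 4.34 and 4.84 CPM to between 7.87 and 8.47. In J82 and TCCSUP it was between 27.8 and 73.2 and between 40.2 and 41.9 CPM in control and between 12.9 and 24.5 and between 23 and 29.6 under CM-1758. CD68 fell in these lines, from 68.4 and 24.6 to 18.1 and 6.57 CPM in J82 and from 19.4 and 20.6 to 8.87 and 15.8 in TCCSUP. In RT112 CD68 went from 4.02 and 3.15 to 2.31 and 2.59 CPM.

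In control STAT4 was lowest in J82, at 0.577 ± 0.0968 CPM, which differed from each other line (largest adjusted p = 0.0127, against RT112). RT112 (1.66 ± 0.617), TCCSUP (2.68 ± 0.971) and 253J (2.99 ± 1.67) were not separated from each other (adjusted p = 0.0847 to 0.794). Under CM-1758, 253J (16 ± 1.96), TCCSUP (11 ± 0.59) and J82 (9.33 ± 2.71) were not separated either, and each was above RT112 (1.25 ± 0.114).

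STAT5A and STAT5B, close paralogs that carry prolactin, growth hormone and IL-2 signals, fell in all 4 lines. STAT5A went from 1.01 and 1.19 CPM to 0.475 and 0.337 in 253J and from 7.64 and 5.56 to 3.08 and 2.30 in J82. It went from 4.48 and 3.29 to 1.29 and 0.992 in RT112 cells and from 15.4 and 15.9 to 4.30 and 5.39 in TCCSUP. Its groups did not overlap in any line. The log2 fold change was -1.44 ± 0.38 in 253J (adjusted p = 0.00496), -1.29 ± 0.28 in J82 (0.00155), -1.76 ± 0.30 in RT112 (0.000243) and -1.69 ± 0.27 in TCCSUP (9.75e-05). Lower calls took 22.4% of tested genes in 253J, 18.5% in J82, 20.2% in RT112 cells and 22.1% in TCCSUP. A difference of the STAT5A effect between lines was not detected (edgeR interaction adjusted p = 0.716), and the widest pair, J82 and RT112, differed by 0.47 with a 95% interval of -0.40 to 1.34. In 253J, where the CM-1758 libraries held 12 and 10 counts, the call was lost without 253J CM-1758 replicate 3 (-1.20, adjusted p = 0.0562).

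STAT5B went from 55.4 and 50.9 CPM to 15.4 and 14.7 in 253J and from 44.4 and 51.7 to 35.4 and 29.8 in J82. It went from 48.1 and 42.1 to 14.8 and 18.7 in RT112 cells and from 78.2 and 83.5 to 29.05 and 32.86 in TCCSUP. The groups did not overlap in any line, and they lay closest together in J82. The log2 fold change was -1.82 ± 0.16 in 253J (adjusted p = 2.93e-07), -0.56 ± 0.15 in J82 (0.00698), -1.43 ± 0.15 in RT112 (3.75e-06) and -1.39 ± 0.15 in TCCSUP cells (2.97e-06). The effect differed between lines (edgeR interaction adjusted p = 0.00118). J82 stood apart from each other line, by 1.26 from 253J, 0.87 from RT112 and 0.83 from TCCSUP on the log2 scale (adjusted p = 0.000402, 0.00833 and 0.0109), while the other 3 pairs were not separated (0.149 to 0.982). The J82 call was lost without J82 control replicate 3 (-0.45, adjusted p = 0.0578) and without J82 CM-1758 replicate 3 (-0.44, 0.0779).

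The paralogs differed in how their control levels varied over the lines. STAT5A ran from 1.1 ± 0.123 CPM in 253J through 3.88 ± 0.843 in RT112 cells and 6.6 ± 1.47 in J82 to 15.6 ± 0.407 in TCCSUP, a ratio of 14.2, and all 6 pairs differed (largest adjusted p = 0.0267). STAT5B ran from 45.1 ± 4.24 CPM in RT112, 48.1 ± 5.13 in J82 and 53.1 ± 3.18 in 253J, which were not separated from each other (adjusted p = 0.199 to 0.668), to 80.8 ± 3.73 in TCCSUP, which was above each of them, a ratio of 1.79. Between transcripts of the genes, 7.3% of 100-base windows were identical, so reads within those stretches cannot be assigned to 1 of them, and the stretches shared by other pairs of members numbered 0.

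STAT5A was the minor partner in every library, with 1.80 to 16.4% of the summed STAT5A and STAT5B counts. The share went from 2.04 ± 0.341% to 2.62 ± 0.522% in 253J, from 12.2 ± 3.5% to 7.58 ± 0.58% in J82, from 7.88 ± 0.902% to 6.54 ± 2.14% in RT112 cells and from 16.2 ± 0.275% to 13.5 ± 0.84% in TCCSUP (SD, n = 2). It was thus higher under CM-1758 in 253J and lower in the other lines, and the groups overlapped in 253J and RT112. The mean difference within lines was -2.02 percentage points (two-sided exact permutation test within lines, p = 0.0278, the smallest possible being 0.00154). The call did not hold on the log2 ratio of the paralogs (-0.23, exact permutation p = 0.21) or when any 1 of the 4 libraries named in the closing section was left out, and the shares are of counts that are not corrected for length.

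**Figure D3:**
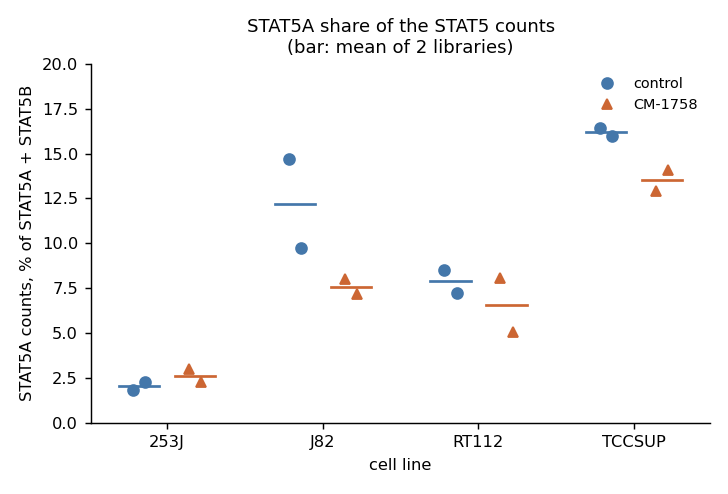
STAT5A counts as a percentage of STAT5A and STAT5B counts in each library, by cell line. Circles are control, triangles CM-1758, and bars the mean of 2 libraries. The line sets most of the height, from 1.80% in a 253J library to 16.4% in a TCCSUP library, and the shift under CM-1758 is small beside it.

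STAT6, the IL-4 and IL-13 factor, fell in all 4 lines. It went from 68.1 and 69.2 CPM to 25.7 and 16.7 in 253J and from 115 and 110 to 35.3 and 22.1 in J82. It went from 111 and 102 to 34.0 and 40.2 in RT112 cells and from 61.7 and 72.3 to 12.1 and 17.0 in TCCSUP. The highest CM-1758 library in any line, at 40.2 CPM, was below the lowest control library in any line, at 61.7. The log2 fold change was -1.70 ± 0.23 in 253J (adjusted p = 2.14e-05), -1.97 ± 0.23 in J82 (9.29e-06), -1.52 ± 0.23 in RT112 (7.58e-05) and -2.20 ± 0.24 in TCCSUP (2.53e-06). In 253J, J82, RT112 and TCCSUP 6.91%, 2.43%, 4.72% and 3.37% of tested genes had a lower value. The edgeR interaction test did not separate the lines (adjusted p = 0.26), and the mean change was -1.85 ± 0.12 (2.91e-09). STAT6 shares 69 exon bases with NAB2 and 59 with LRP1 on the opposite strand, 0.945% and 0.808% of its exon bases, where reads can be assigned only by strand.

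STAT6 control levels fell into a lower and a higher pair of lines. TCCSUP (67 ± 7.44 CPM) and 253J (68.7 ± 0.78) were not separated (adjusted p = 0.964), nor were RT112 (106 ± 6.28) and J82 (113 ± 3.27; 0.813), while every line of the lower pair differed from every line of the higher pair (0.0112 to 0.0257). Under CM-1758 the order was TCCSUP (14.5 ± 3.42), 253J (21.2 ± 6.34), J82 (28.7 ± 9.28) and RT112 (37.1 ± 4.43), and neighbours in this order were not separated (adjusted p = 0.0616, 0.119 and 0.18). The 3 pairs that were not neighbours differed (0.00699 for 253J and RT112, 0.00262 for J82 and TCCSUP, 0.000203 for RT112 and TCCSUP).

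Apart from the STAT5A share of counts, levels of different members were compared per kilobase of merged exon. In control the most abundant member was STAT3 in 253J (21.6 ± 1.94 CPM per kb), STAT2 in J82 (57.8 ± 8.23), STAT6 in RT112 (14.5 ± 0.861) and STAT2 in TCCSUP (24.1 ± 1.42). Under CM-1758, STAT2 and STAT3 were the most abundant members in all 4 lines, with STAT3 at 37.2 CPM per kb in 253J, 26.2 in J82, 21.1 in RT112 cells and 14.8 in TCCSUP, and STAT2 at 19.3, 16, 22.1 and 14.6. In TCCSUP they differed by less than the SD of STAT3, 1.4. STAT3 and STAT2 made up 57.1% and 29.6% of the summed level of the 6 members in treated 253J, against 44.1% and 18.1% in control. STAT6 went from 32.3% of that sum to 9.9% in RT112 cells and from 14.9% to 5.06% in TCCSUP. STAT4 stood above STAT5B in treated 253J, at 3.34 ± 0.41 CPM per kb against 2.34 ± 0.0844. It differed from STAT6 by less than the SD of STAT6 there (2.9 ± 0.869) and in treated TCCSUP (2.3 ± 0.123 against 1.99 ± 0.469). STAT5A was the lowest member in every treated group, from 0.0706 to 0.843 CPM per kb.

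The genes around the STATs in the pathway were counted on lists of 153 genes in all, of which 120 were tested. In 253J 37 were higher and 34 lower, in J82 27 and 21, in RT112 45 and 16, and in TCCSUP 43 and 35. These are 59.2%, 40%, 50.8% and 65% of the listed genes tested, beside the 51.3%, 42.5%, 47.7% and 54.1% of all tested genes. Across all 4 lines 7 of the 120 were higher throughout and 5 were lower throughout, both shares below the 6.69% and 6.01% of all tested genes.

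Of 8 kinases and nuclear partners, 2 were higher and 3 lower in 253J, 0 and 4 in J82, 4 and 1 in RT112, and 1 and 5 in TCCSUP. JAK1, the kinase shared by most of these receptors, fell in 253J (log2 fold change -0.70 ± 0.13) and TCCSUP (-0.72 ± 0.13) and rose in RT112 (0.56 ± 0.13; edgeR adjusted p = 0.000434, 0.000363 and 0.00312), with -0.26 in J82 (0.137). JAK2, the kinase of the growth hormone and IL-12 receptors, did not pass the test in any line, its values lying between -0.32 and 0.29. NMI, a protein that binds STATs, fell in every line, from 40.5 to 5.95 CPM in 253J, 44.6 to 2.72 in J82, 12.7 to 2.55 in RT112 cells and 16.9 to 1.25 in TCCSUP.

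Of 20 negative regulators, 9 were higher and 4 lower in 253J, 6 and 4 in J82, 8 and 3 in RT112, and 8 and 6 in TCCSUP. SOCS3, a target of STAT3 that blocks IL-6 family signalling, rose in every line, by 0.75 ± 0.18, 0.67 ± 0.18, 1.64 ± 0.18 and 0.82 ± 0.18 on the log2 scale in 253J, J82, RT112 and TCCSUP (edgeR adjusted p = 0.00239, 0.00698, 5.56e-06 and 0.00151). PIAS1, a SUMO ligase that restrains STAT binding to DNA, and PTPN1, a phosphatase of JAK2 and TYK2, also rose in every line, as did SOCS7, whose 253J call (0.35, 0.0496) was lost in 13 of 25 alternatives. USP18, which removes ISG15 from proteins and damps the type I interferon receptor, fell in every line, from 108 to 9.01 CPM in J82 and from 10.3 to 5.32 in 253J, although its RT112 call (-0.78, adjusted p = 0.0284) was lost in 7 of 25 alternatives and its 253J call in 2. SOCS2, a STAT5 target that limits growth hormone signalling, fell in 253J (-1.89) and TCCSUP (-2.37) and did not pass the test in J82 or RT112, where a control library had 0 counts. SOCS1 rose in RT112 (2.42, from 12 counts in each control library to 48 and 64) and was called higher in 253J and lower in J82 (1.17 and -1.45, adjusted p = 0.0485 and 0.0234), calls lost in 15 and 5 of 25 alternatives. CISH, the classic STAT5 target, did not pass the test in any line (adjusted p = 0.0522 to 0.961, at most 66 counts in a library).

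Of 35 tested receptor subunits, 7 were higher and 12 lower in 253J, 8 and 4 in J82, 13 and 5 in RT112, and 13 and 10 in TCCSUP. IL13RA1, which forms with IL4R the receptor that drives STAT6 outside the blood lineage, fell in every line, from 183 to 71.5 CPM in 253J, 116 to 60.8 in J82, 77.6 to 37.1 in RT112 cells and 110 to 37.6 in TCCSUP. IL4R itself fell in 253J (-1.20), RT112 (-0.84) and TCCSUP (-0.62), the last call being lost in 6 of 25 alternatives, and stood at 22.1 and 26.4 CPM in J82. IL6ST, the shared signalling chain of the IL-6 family upstream of STAT3, fell in 253J (-1.19 ± 0.20) and rose in RT112 (0.82 ± 0.20), with -0.49 in TCCSUP (adjusted p = 0.0521) and -0.0039 in J82. IL11RA, the IL-11 receptor, rose in every line, by 1.89, 0.72, 0.83 and 1.24 on the log2 scale, although its J82 call was lost in 3 of 25 alternatives.

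Of 19 tested cytokines and hormones, 2 were higher and 7 lower in 253J, 5 and 4 in J82, 7 and 1 in RT112, and 5 and 3 in TCCSUP. CLCF1, a ligand of the IL-6 family, fell in every line, from 6.76 to 0.451 CPM in 253J, 8.07 to 1.9 in J82, 2.56 to 0.675 in RT112 cells and 20 to 1.35 in TCCSUP. The well-known STAT3 targets gave 9 higher and 9 lower of 25 in 253J, 5 and 4 in J82, 10 and 4 in RT112, and 7 and 10 in TCCSUP, with list medians of -0.24, -0.004, 0.09 and -0.22 beside medians of 0.10, 0.05, 0.12 and 0.20 over all tested genes. CEBPD, a STAT3 target and transcription factor, fell in every line while SOCS3 rose. BCL3, another STAT3 target, fell in J82 (-1.55) and TCCSUP (-1.87) and rose in RT112 (1.25), the J82 and RT112 calls each being lost in 3 of 25 alternatives, and PIM1, a survival kinase downstream of STAT3 and STAT5, fell in 253J (-0.95) and rose in J82 (0.95). Of 9 STAT5 targets tested, 3 were higher and 3 lower in 253J, 4 and 0 in J82, 3 and 0 in RT112, and 3 and 3 in TCCSUP, with list medians of -0.36, 0.57, 0.23 and 0.29. Of 15 STAT6 targets tested, 7 were higher and 1 lower in 253J, 1 and 2 in J82, 4 and 3 in RT112, and 7 and 2 in TCCSUP, with list medians of 1.19, 0.26, -0.20 and 0.62. Several of the higher calls rose from 0 counts in control, and their values enter the medians. In 253J CCL26, CCL24 and POSTN reached 0.288, 0.211 and 0.71 CPM under CM-1758. In TCCSUP CCL24, ALOX15, FCER2 and MUC5AC reached 0.935, 0.156, 0.855 and 0.402 CPM. BCL6 rose from 4.4 to 13 CPM in 253J and from 10.5 to 15.3 in TCCSUP. Higher calls took 28.8%, 24%, 27.4% and 32% of all tested genes. The genes called were 53.3%, 20%, 46.7% and 60% of the STAT6 list and 66.7%, 44.4%, 33.3% and 66.7% of the STAT5 list, beside 51.3%, 42.5%, 47.7% and 54.1% of all tested genes. Some targets stand on several lists, and several are themselves pathway members.

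**Figure D4:**
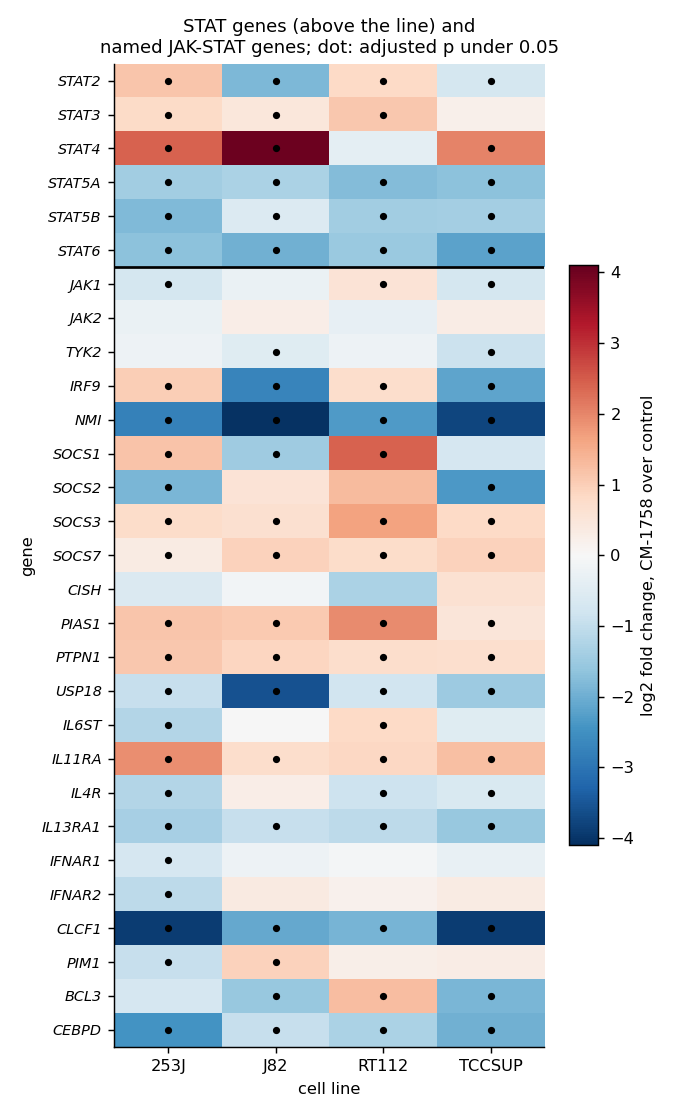
Log2 fold change, CM-1758 over control, of the 6 STAT genes (above the black line) and of 23 kinases, partners, regulators, receptors, a ligand and targets named in the text. Columns are cell lines, colour is the size of the change from blue (lower) to red (higher), and a black dot marks an adjusted p under 0.05. NMI, USP18, IL13RA1, CLCF1 and CEBPD are blue with a dot in all 4 columns, and SOCS3, SOCS7, PIAS1, PTPN1 and IL11RA are red with a dot in all 4.

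The genes whose level followed each member most closely over the 16 libraries were read from the Pearson correlation of log2 CPM among 14209 genes. The libraries share 4 lines and 2 treatments, so a high value can come from either. STAT2 was closest to ISG15, an interferon-induced ubiquitin-like protein (r = 0.946), whose log2 fold changes were 1.66, -3.42, 2.37 and -1.20 in 253J, J82, RT112 and TCCSUP, and then to PPP1R15A (0.899) and PPP1R11 (0.888). STAT3 was closest to KCNV1 (0.946), CLU, the secreted chaperone clusterin (0.943), and IRGQ (0.937). STAT4 was closest to CFAP69 (0.944), MOCS2 (0.92) and ETFDH (0.909), each of which had a value below 0 in RT112. STAT5A was closest to NNT-AS1 (0.957), TPM2, a tropomyosin (0.945), and ADK, adenosine kinase (0.936). STAT5B was closest to FUBP1 (0.969), ST7 (0.953) and DDX51 (0.95), and STAT6 to TCF25 (0.977), JADE2 (0.972) and CARD8 (0.965). Among the members themselves the highest value was 0.763, for STAT5A and STAT5B, and the lowest was -0.828, for STAT4 and STAT6.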

How the data were processed

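The 16 libraries were made from stranded total RNA depleted of ribosomal RNA. The authors deposited 1 table of raw counts per gene symbol, and the submitters' notes name HISAT2, StringTie and GRCh37 without a role or version, so the counting step is not given in the sources used here and the counts may be estimates. Each column was matched to its sample by its title, and 0 sample columns were left over. The members and gene lists were written with earlier results of these data known, and 1 further family member is not reported here.

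Genes were kept by filterByExpr over the 8 groups (21297 of 35993), scaled by TMM and fitted with 1 mean per group in edgeR 4.0.16 (R 4.3.3, limma 3.58.1) by quasi-likelihood, with 8 residual degrees of freedom and a common coefficient of variation of 0.153. P-values were adjusted by Benjamini-Hochberg over all genes within each comparison, and a gene was called at an adjusted p under 0.05. SE is the log2 fold change divided by the root of F. The spread of a gene was estimated over all 16 libraries, so an SE does not show the spread of 1 line. The 95% intervals of the members used 14.72 degrees of freedom. Differences between replicates, as chi-square per degree of freedom against counting error, were 74.4 in J82 control and 50.3 in J82 CM-1758. In the other groups they lay between 11.8 and 22.3. Log2 CPM used a prior count of 2. Genes named were the members, list genes called the same way in all 4 lines, the called gene of largest change per list and line among those with a mean log2 CPM above 0, 14 fixed genes (JAK1, JAK2, TYK2, IRF9, SOCS1 to SOCS3, CISH, PIM1, BCL3, IL6ST, IL4R, IFNAR1, IFNAR2) and the 3 genes most like each member. CD3E, CD3D, MS4A1, PTPRC, ITGAM, CD68, LUM, COL3A1 and CDH1 are marker list genes named after their values were seen. CCL26, CCL24, ALOX15, FCER2, MUC5AC and BCL6, of the STAT6 target list, were also named after their values were seen. A group at 0 in both libraries was set to 3 counts per library for a bound, and for a group with at most 3 counts in each library and not 0 in both the ratio is of the counts as they stand, with a counting interval. In simulated J82 data of 18837 genes the fit called 66 of 100 genes changed 2-fold and 97 of 100 changed 4-fold, and 9 unchanged genes. All other genes were left unchanged there, whereas 42.5% of tested genes were called in J82. The adjustment depends on that share, so the simulated shares do not carry over to these data. Promoters are RefSeq (GRCh38.p14) and exon lengths GENCODE 29. All 6 members matched by symbol. Alternatives used DESeq2 1.42.0, other scalings and filters, each line alone, the replicate block and each library left out.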

Additional observations from a re-analysis of the deposited data

Results flagged for a closer look

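The effect of CM-1758 differed between the cell lines, by an F test of the interaction over all 16 libraries in edgeR, for 4 of the 6 members. The adjusted p was 3.06e-07 for STAT2, 0.00533 for STAT3, 0.000252 for STAT4 and 0.00118 for STAT5B. STAT2 rose in 253J and RT112 and fell in J82 and TCCSUP, STAT3 rose most in RT112, STAT4 rose in the lines other than RT112, and STAT5B fell least in J82. Over all tested genes 51.9% passed the same test, and concentration and medium differed between lines. With 2 libraries in a group, single outlying libraries were not tested for.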

How the results depend on the processing

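Of the 22 member and line values that were called, 18 kept their call and direction in all 25 alternatives, and no called member value changed direction. Fitted for each line alone, STAT3 in J82 lost its call (0.49, adjusted p = 0.0622 in DESeq2, and 0.113 in edgeR), as did STAT5B in J82 (-0.54, 0.0744 and 0.0654) and, in DESeq2, STAT5A in 253J (-1.44, 0.108). STAT3 in TCCSUP gained a call under library totals alone without the small noncoding RNA genes (0.67, 0.000413), in DESeq2 over all lines (0.27, 0.0348) and with at least 10 counts required in every library (0.37, 0.0217). Scaling by totals alone moved the median of all genes by 0.27, 0.15, 0.15 and 0.31 on the log2 scale in 253J, J82, RT112 and TCCSUP, and turned the mean STAT2 change to 0.0625 (adjusted p = 0.585), or 0.12 (0.219) without the small noncoding RNA genes. That mean gained a call without J82 control replicate 3 (-0.19, 0.0438) and without J82 CM-1758 replicate 1 (-0.19, 0.044). Leaving out single libraries, STAT4 in RT112 ranged from -0.74 to 0.0365, the last without RT112 control replicate 1, and IL7R in J82 from -1.26 to 0.95, the first without J82 CM-1758 replicate 1. The cause was not tested for any of these.

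At an adjusted p under 0.01 and a log2 fold change beyond 2, the members called numbered 1, 1, 0 and 2 in 253J, J82, RT112 and TCCSUP, the listed pathway genes called higher 12, 9, 22 and 16, and those called lower 7, 5, 3 and 9, since the limits are stricter. DESeq2 on J82 alone gave 12 lower. With at least 10 counts in every library the higher counts were 20 in 253J, 27 in RT112 and 23 in TCCSUP and the lower count in RT112 was 10, fewer genes being tested. Leaving out each library in turn gave 5 to 6 members in 253J, 4 to 6 in J82 and 5 in RT112 cells and TCCSUP, and pathway genes higher from 27 to 38 in 253J, 22 to 35 in J82, 38 to 48 in RT112 cells and 26 to 43 in TCCSUP, and lower from 29 to 35, 13 to 22, 10 to 19 and 30 to 39. The lowest of these came without J82 control replicate 1 (13 lower), RT112 CM-1758 replicate 1 (10 lower), and TCCSUP control replicate 1, control replicate 2 and CM-1758 replicate 2 (26, 26 and 28 higher). Of 96 called values of 33 named pathway genes, 78 kept their call in all alternatives and 0 changed sign. Besides those flagged above, calls were lost for TYK2 in J82 (3 alternatives), SOCS3 in 253J and J82 (2 each) and PIAS1 in TCCSUP (2). CEBPD in J82, IRF9 in RT112, JAK1 in TCCSUP, and IFNAR1 and IL7R in 253J lost theirs in 1 each.

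The STAT5A share difference ranged from -2.64 to -1.40 points without single libraries and lost its call without J82 CM-1758 replicate 1 (exact permutation p = 0.0802), J82 CM-1758 replicate 3 (0.1), RT112 control replicate 1 (0.0633) or RT112 CM-1758 replicate 2 (0.0617). On the log2 ratio it was -0.23.

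Same-numbered libraries correlated in their deviations at 0.0529 in 253J, 0.218 in J82, 0.0427 in RT112 cells and 0.0173 in TCCSUP, under the limit of 0.1 in 3 of the 4 lines, so the numbers were not taken as pairs, and whether same-numbered libraries share an experiment is not given in the sources used here. With the number as a replicate block, 6, 6, 5 and 5 members were called. The share difference was then the mean over same-numbered pairs, -2.48 points (exact permutation p = 0.0156), and not the mean over lines. In 253J only replicate 3 formed a pair, with 2.28% in control and 2.25% under CM-1758, so this line weighed less. The share fell in every pair, which makes this p the smallest possible. It is not comparable with the result over lines.

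With 2 libraries in a group, changes near 2-fold can be missed, and STAT4 and STAT5A rest on as few as 14 and 10 counts in a library.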

Other observations

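Several genes of STAT signalling had almost no counts in the control cells of at least 1 line and were counted there under CM-1758. IL10RA, the ligand-binding chain of the IL-10 receptor, which signals through STAT3, was called higher in all 4 lines. It had 0 counts in both J82 control libraries and 12 and 23 under CM-1758, at least 5.42-fold higher against 3 counts per library, and in TCCSUP it went from 0 and 2 counts to 252 and 259, a ratio of 252 (95% counting interval 69.4 to 2090). IL3RA, a receptor chain upstream of STAT5, was also called higher in all 4 lines, from 3 and 2 counts to 184 and 208 in RT112 (ratio 91, interval 38.7 to 282), from 1 and 0 to 50 and 36 in TCCSUP (84.8, 14.8 to 3390) and from 0 and 0 to 4 and 12 in 253J, at least 2.52-fold. GHR, the growth hormone receptor, went from 0 and 2 to 67 and 82 counts in RT112 (86.5, 23.5 to 721), and IL7R from 3 and 0 to 38 and 40 in 253J (25.5, 8.39 to 126), while in TCCSUP, where control libraries held 22546 and 21714 counts, IL7R fell by 2.64 on the log2 scale. EBI3, a subunit of IL-27, went from 0 counts to 78 and 72 in RT112, at least 29-fold higher, and was called lower in 253J.

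Listed STAT targets behaved likewise in some lines. CCND2, a cyclin and STAT5 target, had 0 counts in the control libraries of J82, RT112 and TCCSUP and was at least 34.6-fold, 29.4-fold and 11-fold higher under CM-1758, while in 253J, where control libraries held 4794 and 3924 counts, it fell by 0.99 on the log2 scale. LRG1, a STAT3 target, was at least 7.16-fold higher in J82 and 3.98-fold higher in TCCSUP, and S100A9 went from 0 and 2 counts to 303 and 282 in TCCSUP (ratio 288, interval 79.5 to 2390). TWIST1 was at least 4.08-fold higher in RT112 and fell by 1.22 in TCCSUP. POSTN, a STAT6 target, was at least 6.35-fold higher in 253J and fell by 5.01 in TCCSUP, from 21885 and 24403 counts to 694 and 763. These genes had the largest called change of their list in at least 1 line among genes with a mean log2 CPM above 0, or were called in the same direction in all lines, and genes with a lower mean can have larger changes. Ratios with an interval are of the counts as they stand, without the floor of 3 counts used for the bounds, so the folds are not comparable with each other, and the intervals cover counting error only.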
